A study of Homo sapiens with 8 samples.

Results

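The 45 genes described here encode the machinery that takes a cell from G2 into mitosis and through division, and were measured in Reh cells under 4 transfections. The set is a named list of gene symbols, and each gene is represented by the probe set with the highest mean over the 8 arrays. All 45 had a probe set that passed the floor used for testing, log2 5 on at least 2 arrays, out of 11449 genes with such a probe set, and the lowest value of any of them on any array was 6.51. Their 88 probe sets were among the 54675 of the Affymetrix U133 Plus 2.0 array.

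Reh is an established human B-cell precursor line, which the design text traces to acute lymphoblastic leukemia while the sample labels file it under non-Hodgkin lymphoma. Total RNA was hybridized from cells that carried a control shRNA, an shRNA against the corepressor gene CBFA2T3, the constitutively active kinase IKKβ(EE), or the CBFA2T3 shRNA and IKKβ(EE) together. Each group had 2 arrays, which the labels number as biological replicates without saying whether they came from separate cultures, so p-values measure the spread between these samples only. Knockdown and expression were transient per the labels, which do not give the share of cells transfected, the time to harvest, or whether any control shRNA accompanied IKKβ(EE) in its own group. All groups share the line's own genetic background, so the arrays describe 1 leukemia-derived line.

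Cells enter mitosis when CDK1, bound to cyclin B, is activated by CDC25 phosphatases and held active by Polo-like and Aurora kinases. The spindle is then built by motors and microtubule-binding proteins, the checkpoint holds chromosomes until every kinetochore is attached, and the anaphase-promoting complex ends mitosis by marking cyclin B and securin for destruction. Transcripts of these genes accumulate in G2 and mitosis, so in a bulk sample fewer cells in those phases and less RNA per cell cannot be told apart. Many of the promoters hold CCAAT boxes, bound by NF-Y, and a cell cycle genes homology region (CHR), bound by complexes built on the MuvB core. These are the repressor DREAM in resting cells and complexes with MYBL2 and FOXM1 in dividing ones.

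The promoters are shown because these elements are what the set is known to share. RefSeq promoter entries (GRCh38.p14) were matched for 37 of the 45 genes by symbol. AURKA, BIRC5, BUB3, FOXM1, RACGAP1, TPX2, TTK and UBE2C were not matched. In the 250 bases before the start, the CHR letters TTTGAA, which read TTCAAA when the element lies on the opposite strand, occurred in 20 of the 37, or 54.1%, against 16.1% of 27305 genes with an entry. The box CCAAT, which reads ATTGG on the opposite strand, occurred in 31, or 83.8%, against 37% of all, and both motifs in 18, or 48.6%, against 5.79% of all. Both strands were searched, and adjacent matches of the different motifs can share 1 letter. The 150 bases before the start are printed 5′ to 3′ for 4 genes whose change with both transfections passed a test and for CKS2, which was among the 3 smallest changes, with both motifs in capitals:
CCNB2: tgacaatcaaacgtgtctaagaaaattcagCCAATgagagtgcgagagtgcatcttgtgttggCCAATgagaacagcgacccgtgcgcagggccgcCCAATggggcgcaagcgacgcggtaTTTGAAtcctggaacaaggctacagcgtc
CENPF: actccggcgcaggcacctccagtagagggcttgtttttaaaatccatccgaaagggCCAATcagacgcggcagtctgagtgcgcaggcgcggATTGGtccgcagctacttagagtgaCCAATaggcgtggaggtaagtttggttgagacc
DLGAP5: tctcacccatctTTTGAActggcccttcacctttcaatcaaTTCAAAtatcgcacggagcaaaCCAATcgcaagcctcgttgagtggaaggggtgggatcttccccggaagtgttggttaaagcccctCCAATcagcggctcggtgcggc
PLK1: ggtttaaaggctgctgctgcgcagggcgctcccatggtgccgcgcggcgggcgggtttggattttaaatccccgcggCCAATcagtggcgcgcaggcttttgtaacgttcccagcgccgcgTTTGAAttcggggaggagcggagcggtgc
CKS2: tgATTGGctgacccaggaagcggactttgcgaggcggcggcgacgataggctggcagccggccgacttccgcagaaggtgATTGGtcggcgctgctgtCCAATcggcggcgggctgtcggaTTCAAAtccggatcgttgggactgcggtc
They lie at chr15:59104996-59105145 (plus strand, CCNB2), chr1:214603045-214603194 (plus, CENPF), chr14:55191586-55191735 (minus, DLGAP5), chr16:23678739-23678888 (plus, PLK1) and chr9:89311045-89311194 (plus, CKS2). In CCNB2, PLK1 and CKS2 the CHR letters began 29 bases before the start, downstream of the nearest CCAAT box. CENPF held 3 CCAAT boxes in the 150 bases printed. It held no CHR letters in its 250 bases, which says only that these letters are not in this window. In the bases printed DLGAP5 held 2 CHR matches, both upstream of its CCAAT boxes there. CKS2 carried the same motif pair as CCNB2 and PLK1. Over the 37 genes, the median log2 change with both transfections was -0.39 for the 20 with CHR letters and -0.36 for the 17 without. The difference between these medians was not tested.

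The arrays were checked against their labels first. CBFA2T3 read log2 9.22 and 9.29 on the control arrays, 8.40 and 8.11 with its shRNA, 8.91 and 8.89 with IKKβ(EE), and 8.23 and 7.83 with both. On 1 of its 3 probe sets IKBKB, the gene of IKKβ, lay between 3.60 and 4.43 on the 4 arrays without IKKβ(EE) and read 10.85 and 10.39 with IKKβ(EE) and 11.45 and 11.97 with both. Replicate 2 of both transfections had the lowest CBFA2T3 and the highest IKBKB value of the 8. Of 11 B-cell precursor markers on the array with a single-symbol probe set 10 passed the floor, with mean levels up to 13.5 (DNTT), and VPREB1 was below it (3.22). Their summed signal (log2) ranged from 14.9 to 15.4 over the arrays and averaged 15.3 in control, 15.1 for the shRNA, 15.3 for IKKβ(EE) and 15.0 for both. All 10 had a lower value with both transfections than in control (median -0.30), as did 44 of the 45 G2/M and mitosis genes. By limma 0 of the 10 were called (3.75% of all probe sets were called lower), with 3 at an unadjusted p under 0.05 (14.1% of all, lower). With the replicate block, which fits replicate number as a term, 2 were called, where 12.0% of all probe sets were called lower. These were DNTT (-0.46, block adjusted p = 0.0326) and CD79B (-0.37, block adjusted p = 0.0481). Of 7 T and NK cell markers 6 had a mean under log2 5, with NKG7 at 5.09, and of 7 myeloid markers 5 did, with ITGAM at 6.03 the highest. The summed T and NK signal (log2) ranged from 6.91 to 7.25 over the arrays and averaged 7.04 in control, 7.17 for the shRNA, 6.98 for IKKβ(EE) and 7.20 for both. The myeloid sum ranged from 7.10 to 7.74 and averaged 7.16, 7.54, 7.47 and 7.39 in the same order. NKG7 rose by 0.89 with both (limma adjusted p = 0.0209) from a control mean of 4.64. It reached the floor only on arrays with the CBFA2T3 shRNA, where it is high, so this p-value gives no separate support. ITGAM stood at 0.71 with both (adjusted p = 0.286, block 0.0388) and at 0.99 with IKKβ(EE) alone (adjusted p = 0.484, block 0.0438). CSF1R, the other myeloid marker tested, stood at 0.12 and -0.12 and was not called. The part of these differences in the results below was not tested.

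**Figure D1:**
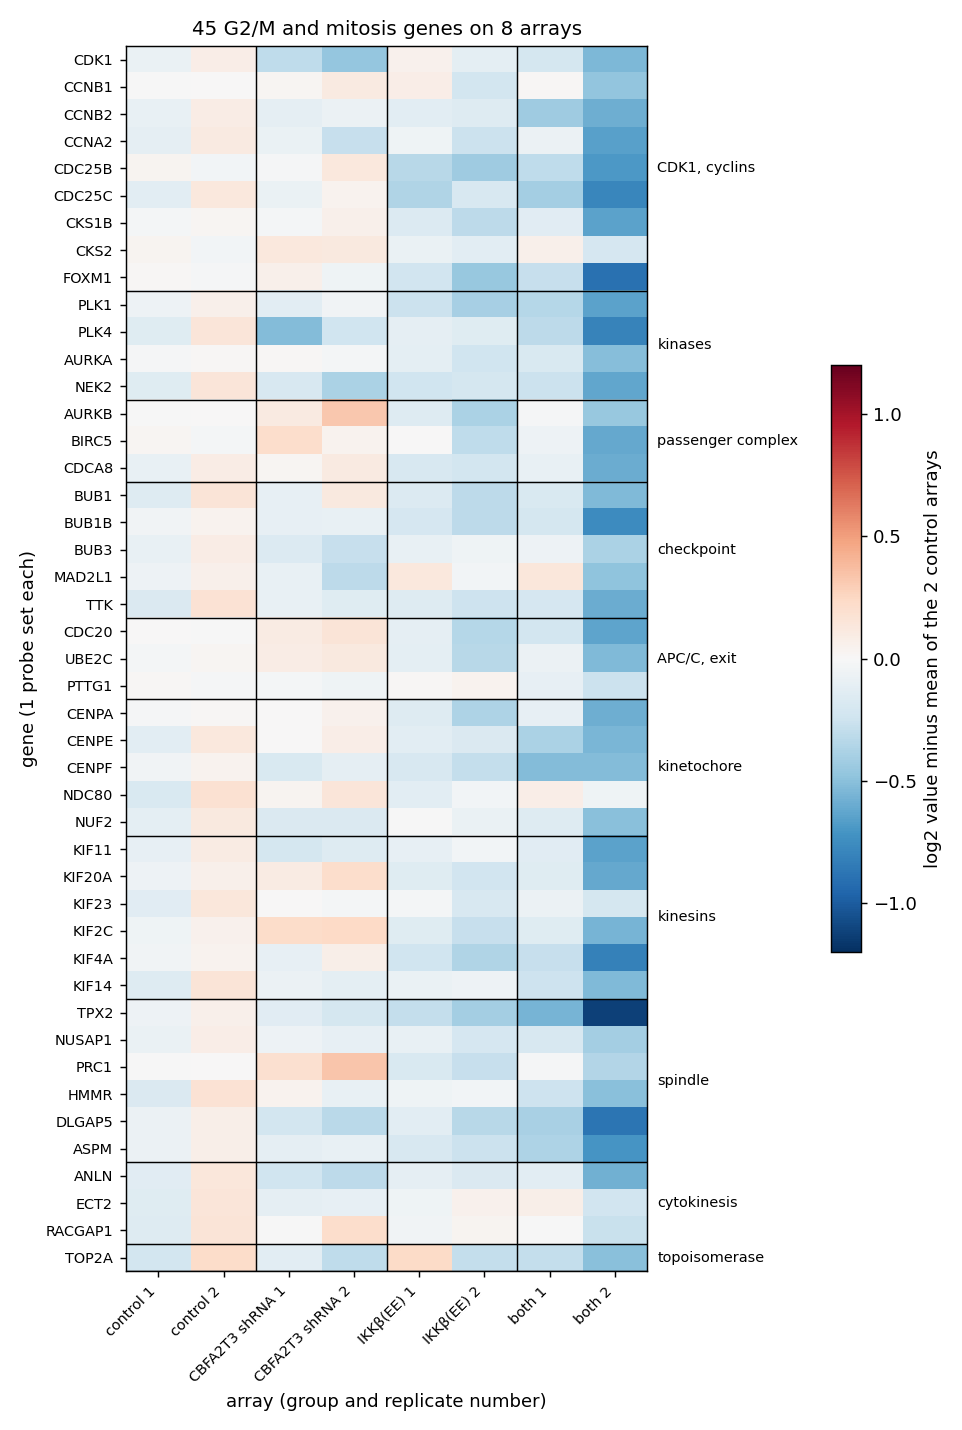
Each of the 45 genes (vertical axis, ordered by role) is shown on the 8 arrays (horizontal axis) as the log2 difference from its mean on the control arrays, in colour. The column of replicate 2 with both transfections stands apart, with a median of -0.56.

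Seen array by array, the genes were lowest on a single array. Relative to the control mean, the median over the 45 was -0.07 and 0.07 on the control arrays, -0.07 and -0.05 with the CBFA2T3 shRNA, -0.12 and -0.23 with IKKβ(EE), and -0.18 and -0.56 with both (log2, replicates 1 and 2). The median over all 24481 tested probe sets was between -0.04 and 0.01 on every array. Replicate 2 of both transfections held the lowest of the 8 values for 43 of the 45 genes, against 22.5% of all probe sets. Control replicate 2 held the highest value for 26 of the 45, against 12.7% of all probe sets.

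With both transfections together, TPX2, CENPF and CCNB2 fell against control, and 44 of the 45 genes were lower, all but NDC80. The median log2 change was -0.37, or 77.2% of the control level, against -0.03 over all tested probe sets, 53.7% of which were lower. A gene was called where the adjusted p from limma (Benjamini-Hochberg over all 24481 probe sets) was under 0.05. The 3 genes called lower are 6.67% of the set, against 3.75% of all probe sets, and 20 had an unadjusted p under 0.05 (14.1% of all). With the replicate number as a block (a fit that compares arrays within a replicate number), 10 were called, 22.2% of the set against 12.0% of all. The block is 1 replicate term shared by all groups, while the set's median replicate difference was 0.13 in control and -0.38 with both. In 35 of the 45 both arrays lay below both control arrays, against 30.2% of all probe sets.

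TPX2, which activates Aurora A and nucleates spindle microtubules, read log2 10.49 and 10.61 with the control shRNA, 10.42 and 10.34 with the CBFA2T3 shRNA, 10.26 and 10.15 with IKKβ(EE), and 9.99 and 9.43 with both. Each group lay below the one before it without overlap. It fell by 0.84 ± 0.18 (SE of the fit, n = 2 arrays a group) with both, 44.0% below control (limma adjusted p = 0.0372, or 0.0117 with the replicate block). CENPF, a large protein of the kinetochore corona, read 10.72 and 10.80 in control, 10.58 and 10.65 with the shRNA, 10.57 and 10.48 with IKKβ(EE), and 10.24 and 10.24 with both. Its arrays with both lay at the same level and below the other 6, and it fell by 0.52 ± 0.11 (adjusted p = 0.0326, block 0.0113). CCNB2, one of the B-type cyclins that activate CDK1, read 11.46 and 11.63 in control, 11.44 and 11.48 with the shRNA, 11.42 and 11.40 with IKKβ(EE), and 11.13 and 10.96 with both. Again the arrays with both were the lowest of the 8, and it fell by 0.50 ± 0.12 (adjusted p = 0.0459, block 0.0187). All 3 calls depended on single arrays. Leaving out any array other than replicate 1 of both left 0 of the 45 genes called, and leaving out that array gave 18, with TPX2 and CCNB2 among them but not CENPF (adjusted p = 0.0528). In that fit 7.16% of all probe sets were called lower.

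The other 7 genes passed with the replicate block only. DLGAP5, a spindle protein also called HURP, read 10.64 and 10.77 in control, 10.49 and 10.38 with the shRNA, 10.58 and 10.37 with IKKβ(EE), and 10.32 and 9.83 with both, a change of -0.63 ± 0.18 (adjusted p = 0.0694, block 0.0227). ASPM, which focuses spindle poles, read 11.22 and 11.35 in control, 11.18 and 11.20 with the shRNA, 11.10 and 11.03 with IKKβ(EE), and 10.91 and 10.58 with both, a change of -0.54 ± 0.14 (adjusted p = 0.0569, block 0.0239). For both genes the arrays with both transfections lay below all 6 others. CENPE, the kinetochore motor that moves chromosomes to the spindle equator, read 9.80 and 10.05 in control, 9.93 and 10.01 with the shRNA, 9.79 and 9.75 with IKKβ(EE), and 9.55 and 9.38 with both, a change of -0.46 ± 0.13 (adjusted p = 0.0723, block 0.0337). CDC25C, a phosphatase that switches on CDK1, read 7.59 and 7.84 in control, 7.63 and 7.75 with the shRNA, 7.35 and 7.52 with IKKβ(EE), and 7.31 and 6.93 with both, a change of -0.59 ± 0.17 (adjusted p = 0.0683, block 0.0343). These 2 were also lowest on the arrays with both.

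FOXM1, CDC25B and PLK1 differed in that their arrays with both overlapped those with IKKβ(EE) alone. FOXM1, a transcription factor that drives many genes of the set, read 9.06 and 9.03 in control, 9.11 and 8.999 with the shRNA, 8.82 and 8.60 with IKKβ(EE), and 8.77 and 8.15 with both, a change of -0.59 ± 0.20 (adjusted p = 0.115, block 0.0304). CDC25B, another CDK1-activating phosphatase, read 9.86 and 9.80 in control, 9.81 and 9.95 with the shRNA, 9.50 and 9.40 with IKKβ(EE), and 9.53 and 9.14 with both, a change of -0.49 ± 0.15 (adjusted p = 0.0866, block 0.0365). PLK1, the Polo-like kinase of mitotic entry, read 7.09 and 7.21 in control, 7.02 and 7.11 with the shRNA, 6.89 and 6.76 with IKKβ(EE), and 6.81 and 6.51 with both, a change of -0.50 ± 0.14 (adjusted p = 0.0697, block 0.0315). In all 3 the arrays with the CBFA2T3 shRNA lay close to control and those with IKKβ(EE) below it.

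At the other end stood NDC80, CKS2 and ECT2. NDC80, the kinetochore's microtubule-binding subunit, read 9.68 and 10.05 in control, 9.90 and 10.02 with the shRNA, 9.74 and 9.84 with IKKβ(EE), and 9.94 and 9.82 with both, a change of 0.01 ± 0.15 (95% confidence interval -0.34 to 0.36). CKS2, a small CDK-binding subunit, read 12.13 and 12.06 in control, 12.23 and 12.22 with the shRNA, 12.02 and 11.97 with IKKβ(EE), and 12.16 and 11.90 with both, a change of -0.07 (interval -0.36 to 0.22). ECT2, the exchange factor that activates RhoA at the cleavage site, read 9.49 and 9.78 in control, 9.53 and 9.54 with the shRNA, 9.58 and 9.68 with IKKβ(EE), and 9.71 and 9.40 with both, a change of -0.08 (interval -0.43 to 0.28). In all 3 the arrays with both overlapped control, and the sign turned when single arrays were left out.

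**Figure D2:**
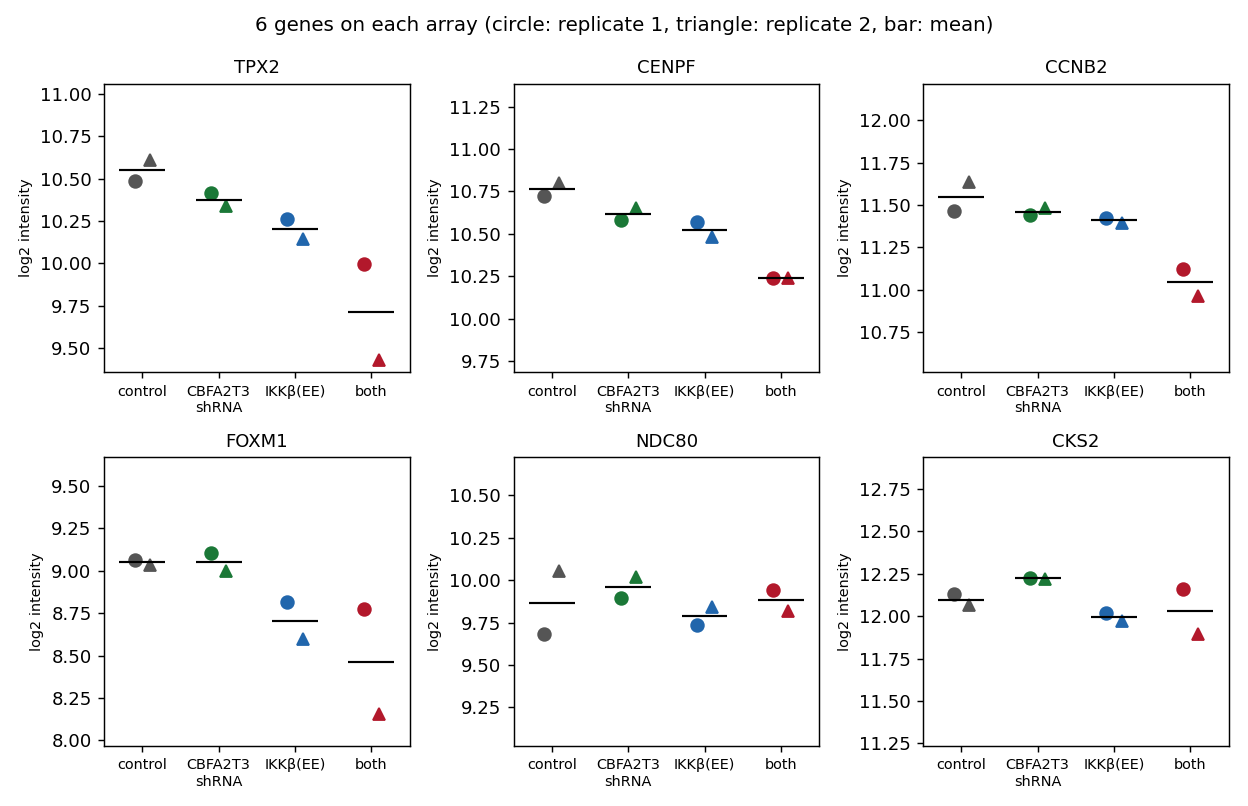
Log2 expression (vertical axis) of TPX2, CENPF, CCNB2, FOXM1, NDC80 and CKS2 on each array, by group (horizontal axis), with the group mean as a line. CENPF reads 10.24 on both arrays with both transfections, whereas TPX2 reads 9.99 and 9.43.

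By role, the change with both transfections was spread over the whole set. The 9 genes of CDK1, its cyclins and their regulators were all lower with a median of -0.39, and CDK1 itself stood at -0.37 and CCNB1, the main B-type cyclin, at -0.23. The 4 mitotic kinases had a median of -0.47, with PLK4, which licenses centriole duplication, at -0.56 and AURKA, the spindle-pole Aurora kinase, at -0.35. The 3 genes of the chromosomal passenger complex, AURKB, BIRC5 (survivin) and CDCA8 (borealin), had a median of -0.34. All 5 checkpoint genes were lower (median -0.36), from BUB1B at -0.48 to MAD2L1 at -0.17. Of the 3 genes of anaphase onset, CDC20, the activator of the anaphase-promoting complex, stood at -0.43, its ubiquitin-conjugating partner UBE2C at -0.30 and PTTG1, which encodes securin, at -0.18. None of these named genes passed the test in either fit on its chosen probe set.

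The 6 kinesins were lower with a median of -0.38, from KIF4A, a chromosome-bound motor, at -0.54 to KIF23, a motor of the central spindle, at -0.14. The 5 centromere and kinetochore genes had a median of -0.34, with 4 lower. The 6 spindle assembly genes had a median of -0.46, and 3 of them (TPX2, DLGAP5 and ASPM) passed with the block, while PRC1, which bundles midzone microtubules, stood at -0.18. The 3 cytokinesis genes had the median nearest to 0, -0.13, with ANLN, an actin-binding scaffold of the furrow, at -0.35 and RACGAP1 at -0.13. TOP2A, which untangles sister chromatids, stood at -0.39. Differences between these role groups were not tested.

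**Figure D3:**
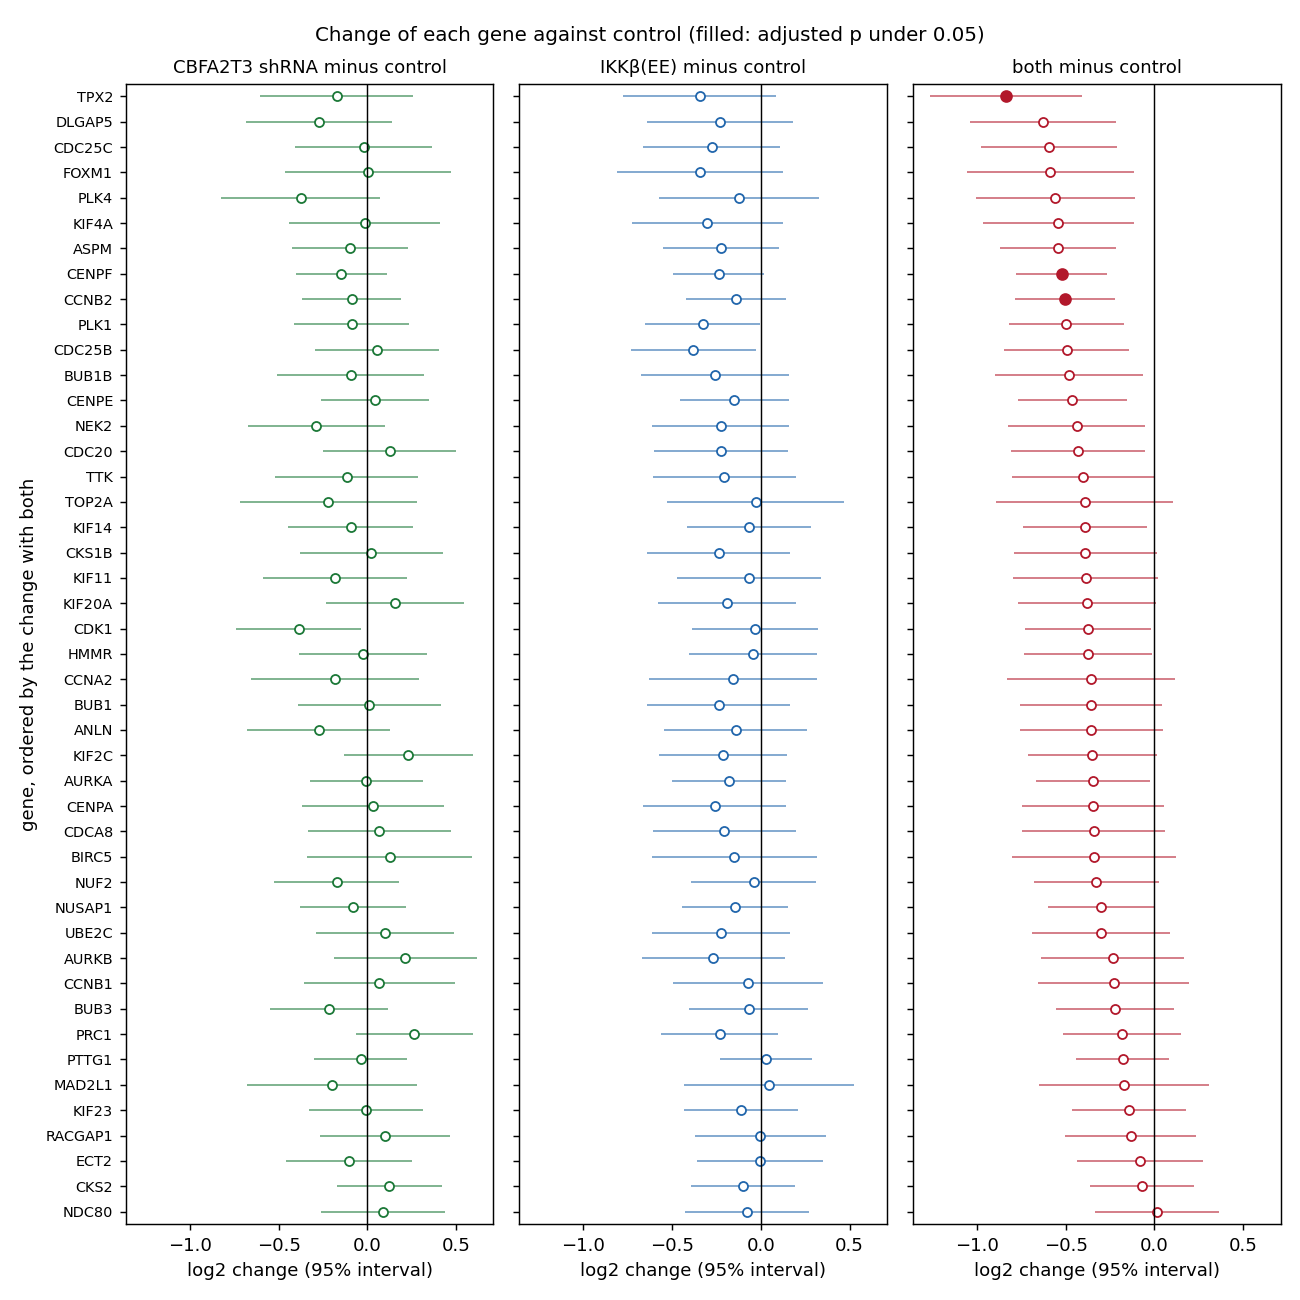
Log2 change against control (horizontal axis) of the 45 genes (vertical axis) with the CBFA2T3 shRNA, IKKβ(EE) and both, as points with 95% confidence intervals from limma. The intervals of TPX2, CENPF and CCNB2 with both lie below 0, and that of NDC80 spans -0.34 to 0.36.

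The difference between control and both transfections was larger between the replicate 2 arrays. Between the replicate 1 arrays 35 of the 45 genes were lower, with a median of -0.09, and 54.2% of all probe sets were lower. Between the replicate 2 arrays all 45 were lower, with a median of -0.67, and 52.2% of all probe sets were lower. TPX2 differed by -0.49 and -1.18, CCNB2 by -0.34 and -0.67, and CENPF by -0.48 and -0.56. CENPF was thus nearly alike in both pairs, and the replicate 1 differences of TPX2 and CENPF were the largest of the 45. Without replicate 2 of both the median over the set was -0.18, and without replicate 1 of both it was -0.56.

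**Figure D4:**
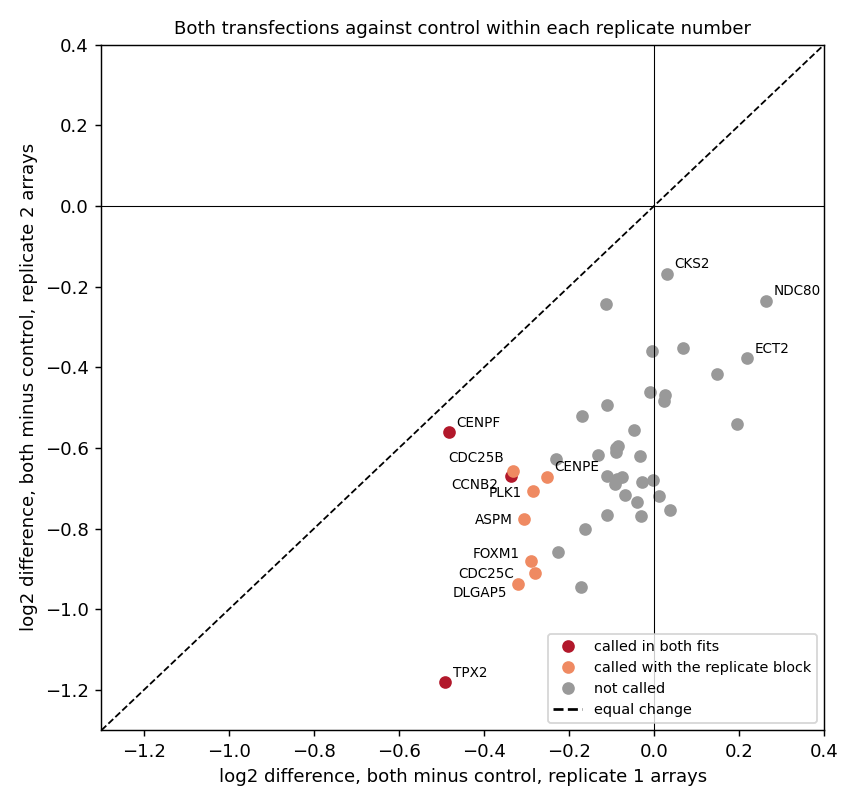
Each point is 1 of the 45 genes, with the log2 difference both minus control between the replicate 1 arrays (horizontal axis) and between the replicate 2 arrays (vertical axis), and a dashed line of equal change. All points lie below 0 on the vertical axis, and CENPF (-0.48 and -0.56) lies nearest to the line among the genes called.

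With the CBFA2T3 shRNA alone the genes went in both directions. Of the 45, 27 were lower (48.2% of all probe sets) and 18 higher, the median was -0.02 (0.01 over all probe sets), and 0 were called by limma in either direction (0.396% of all probe sets were called lower and 0.294% higher). Only CDK1 had an unadjusted p under 0.05 (8.08% of all probe sets, lower), at 12.29 and 12.44 in control and 12.06 and 11.90 with the shRNA, a change of -0.39 ± 0.15 (adjusted p = 0.265, block 0.117). PLK4 stood at -0.38, NEK2, a centrosomal kinase, at -0.29, and ANLN and DLGAP5 at -0.27. At the other end PRC1 stood at 0.27, KIF2C, a microtubule-depolymerizing kinesin, at 0.23 and AURKB at 0.21, and the 3 passenger genes were all higher. Both arrays lay below both control arrays for 14 genes (24.0% of all probe sets) and above for 9 (25.9%). The 95% intervals of the 45 reached from -0.83 to 0.62, so none included a change of 1 on the log2 scale in either direction.

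With IKKβ(EE) alone 43 of the 45 genes were lower, all but MAD2L1 (0.05) and PTTG1 (0.03). The median was -0.18 (88.3% of control), against -0.03 over all probe sets, 55.6% of which were lower. By limma 0 genes were called (0.00817% of all probe sets were called lower and 0.221% higher), and 2 had an unadjusted p under 0.05 (3.66% of all, lower), CDC25B (-0.38 ± 0.15, adjusted p = 0.485) and PLK1 (-0.33 ± 0.14, adjusted p = 0.510). TPX2 stood at -0.34, FOXM1 at -0.34 and KIF4A at -0.30. Both arrays lay below both control arrays for 26 genes (23.3% of all probe sets). The 95% intervals reached from -0.81 to 0.52. Here too the difference was larger in replicate 2, with a median of -0.04 between the replicate 1 arrays and -0.31 between the replicate 2 arrays.

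The 3 comparisons against control share the control arrays, so their values are given side by side only. TPX2 changed by -0.17, -0.34 and -0.84 with the shRNA, IKKβ(EE) and both, CENPF by -0.15, -0.24 and -0.52, CCNB2 by -0.09, -0.14 and -0.50, and CDK1 by -0.39, -0.03 and -0.37. The interaction, which is the change with both minus the sum of the single changes, had a median of -0.16 over the 45 genes, with 39 below 0 (51.8% of all probe sets). By limma 0 genes were called for it (0% of all probe sets lower and 0.0123% higher), and 0 had an unadjusted p under 0.05 (1.07% of all, lower). The lowest was -0.37 (KIF2C), CENPE stood at -0.36 and TPX2 at -0.32, and the smallest adjusted p of the set was 0.9998. Without replicate 2 of both the median interaction was 0.04.

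Both transfections were also set against each alone. Against the CBFA2T3 shRNA alone 42 genes were lower (56.4% of all probe sets) with a median of -0.36 (-0.04 over all probe sets), 0 were called (0.0408% of all called lower), and 20 had an unadjusted p under 0.05 (7.46% of all). TPX2 stood at -0.66, FOXM1 at -0.59 and KIF2C at -0.58, while CDK1 stood at 0.01. Both arrays lay below both shRNA arrays for 32 genes (26.8% of all probe sets). The median was -0.50 without replicate 1 of both and -0.15 without replicate 2 of both. Against IKKβ(EE) alone 41 were lower (50.5% of all) with a median of -0.20 (0.00 over all probe sets), 0 were called (0.0572% of all called lower), and 4 had an unadjusted p under 0.05 (7.79% of all), CCNB2 (-0.37), CENPE (-0.31), CENPF (-0.28) and TPX2 (-0.49). The arrays did not overlap, with both lower, for 16 genes (21.7% of all probe sets). Without replicate 2 of both the median against IKKβ(EE) alone was 0.01.

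Replicate 2 against replicate 1, over the 4 groups, gave 0 called genes (3.70% of all probe sets were called lower and 5.20% higher), a median of -0.07 and 1 unadjusted p under 0.05 (15.3% of all probe sets, lower), that of BIRC5 (adjusted p = 0.113). This average holds differences of opposite sign. In control 39 of the 45 genes were higher on replicate 2 (median 0.13), with the shRNA 25 were higher (median 0.02), with IKKβ(EE) 35 were lower (median -0.09), and with both 44 were lower (median -0.38). The median over all probe sets stayed between -0.01 and 0.00 in each group. FOXM1, BIRC5 and CKS2 were lower on replicate 2 in all 4 groups, and no gene was higher in all 4, against 20.0% and 18.0% of all probe sets.

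**Figure D5:**
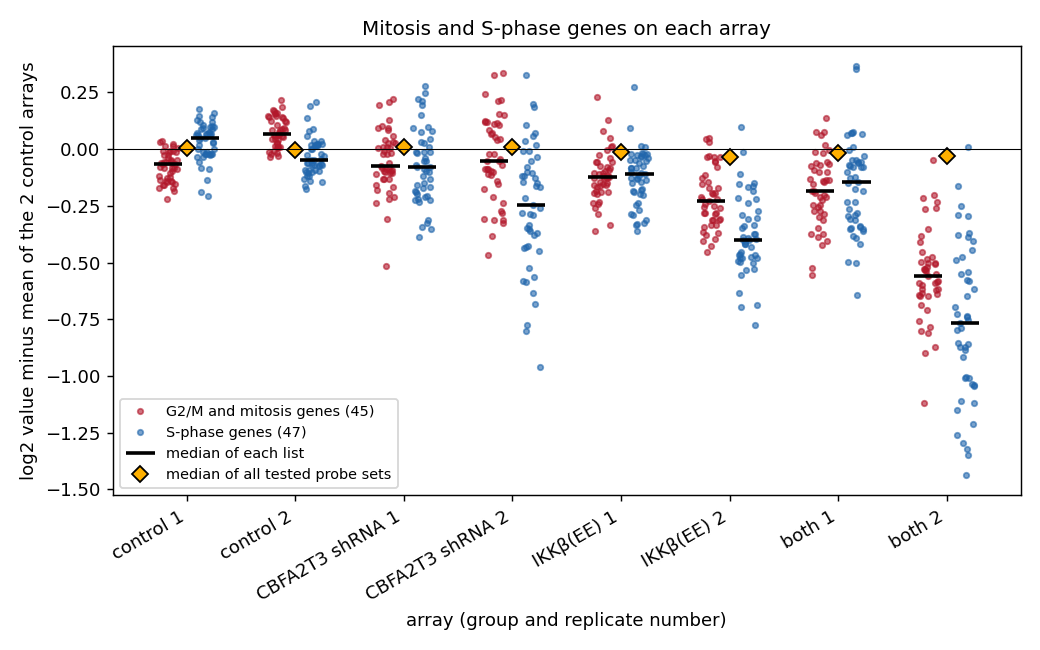
Log2 difference from the control mean (vertical axis) on each of the 8 arrays (horizontal axis) for the 45 G2/M and mitosis genes and for 47 S-phase genes, as points with medians, and the median of all tested probe sets. On replicate 2 of both transfections the medians are -0.56 and -0.77.

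Other cell cycle lists place these values. Of 60 further mitosis genes 58 were lower with both transfections (median -0.40), 5 were called lower and 0 higher, or 20 and 1 with the replicate block. Over all probe sets 3.75% were called lower, or 12.0% with the block. SKA2, of the kinetochore's microtubule coupler, fell by 0.75, NCAPD2, a condensin subunit, by 0.73, and PIF1, a helicase, by 0.72. Of 47 S-phase genes 45 were lower (median -0.47), 1 was called, PRIM1, the primase subunit, at -0.97, and 21 with the block. S-phase genes differed from the mitosis set in control, where 30 of the 47 were lower on replicate 2 (median -0.10) while 39 of the 45 mitosis genes were higher. With both transfections 47 of 47 S-phase genes were lower on replicate 2, with a median of -0.61. The difference between the lists was not tested.

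The regulators of entry and exit moved in both directions. Of 15 G2/M entry regulators 1 was called lower with both, ARPP19, an inhibitor of the phosphatase that opposes CDK1 (-0.81 ± 0.17, adjusted p = 0.0310). The 2 called higher were GADD45B, a stress-induced gene (1.02 ± 0.17, adjusted p = 0.0197), and CDK7, the CDK-activating kinase (0.75 ± 0.17, adjusted p = 0.0423). With the block 4 were called lower and 3 higher. Over all probe sets 3.75% were called lower, or 12.0% with the block. The share called higher with both is not given here, so the counts called higher in these cell cycle lists cannot be set against it. With the CBFA2T3 shRNA alone ARPP19 stood at -0.96 (adjusted p = 0.0569, block 0.00904), GADD45B at -0.49 and CDK7 at 0.17. Of 19 genes of the ubiquitin ligases APC and SCF 1 was called lower and 1 higher with both, or 1 and 2 with the block. FBXW7, the substrate receptor that targets cyclin E and MYC, fell with both (-1.09 ± 0.21, adjusted p = 0.0260). It also fell with the CBFA2T3 shRNA alone (-1.34 ± 0.21, adjusted p = 0.0459), and ANAPC10 rose by 0.60 with both. FBXW7 read 10.25 and 10.12 in control, 9.15 and 8.55 with the shRNA, 9.94 and 9.82 with IKKβ(EE) and 9.24 and 8.95 with both, so the 4 arrays with the shRNA lay below the 4 without it. Of 23 DREAM and E2F genes 2 were called lower and 1 higher with both, or 4 and 3 with the block. MYBL1 (-0.77) and NFYB, an NF-Y subunit (-0.73), fell with both and LIN37, a MuvB subunit, rose by 0.88. With the block only, TFDP1 (-0.74, block adjusted p = 0.00771) and MYBL2 (-0.62, 0.0403) were called lower. E2F5 (0.94, 0.0217) and TFDP2 (0.41, 0.0315) were called higher in that fit. With the shRNA alone LIN37 stood at 0.70 (adjusted p = 0.149, block 0.0230), MYBL1 at -0.07 and NFYB at -0.22. With IKKβ(EE) alone LIN37 stood at 0.33, MYBL1 at -0.43 and NFYB at -0.27.

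Among 11 G1 regulators 2 were called higher with both and 0 lower, or 4 and 0 with the replicate block. The D-type cyclins CCND2 and CCND1 rose with both by 3.88 ± 0.31 (adjusted p = 0.00159) and 2.36 ± 0.37 (adjusted p = 0.0159). Their control means were under log2 5, so the folds are uncertain. Both genes reached the floor only on arrays with IKKβ(EE), where they are high, so their p-values give no separate support. The kinase inhibitor genes CDKN1A (0.75, adjusted p = 0.0848, block 0.0273) and CDKN1B (0.45, adjusted p = 0.169, block 0.0159) passed with the block only. CCND2 read 3.89 and 4.02 in control, 3.95 and 4.27 with the shRNA, 6.05 and 6.62 with IKKβ(EE) and 7.38 and 8.29 with both, and it rose by 2.38 ± 0.31 with IKKβ(EE) alone (adjusted p = 0.0386). Its 4 arrays with IKKβ(EE) lay above the 4 without it.

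Further probe sets of the same genes were mostly lower too. Of the 45 genes 19 had more than 1 tested probe set, and 29 of the 30 further probe sets were lower with both transfections (median -0.48, against -0.36 for the chosen probe sets of those 19 genes). By limma 1 of the 30 was called, a BUB3 probe set at -1.10 (adjusted p = 0.0309). It read 5.08 and 5.54 in control and 4.48 and 3.95 with both, around the floor, so its change is uncertain. The other further BUB3 probe sets ranged from -0.44 to 0.00, and none was called in either fit. With the replicate block 11 of the 30 were called lower, where 12.0% of all probe sets were (3.75% without it). They belonged to 10 genes, BUB3 through the probe set near the floor. On the chosen probe set 8 of these genes were called in neither fit, CDK1, CCNB1, BIRC5, PLK4, NEK2, BUB3, HMMR and ANLN. Of the 3 further probe sets of CDK1, 2 were among them and stood at -0.61 and -0.63 (block adjusted p = 0.0112 and 0.0105), and that of CCNB1 at -0.63 (0.0213). The second probe set of CENPF stood at -0.69 (adjusted p = 0.0526, block 0.0233).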

How the data were processed

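Total RNA of 8 Reh samples was hybridized to Affymetrix U133 Plus 2.0 arrays. The table deposited by the authors holds log2 intensities per probe set, made with RMA per the submitters' processing notes. RMA sets all arrays to a common distribution, so a shift of most transcripts is removed. The RMA version, filters and chip definition were not given in the sources used here. Values up to 14.6 gave the log base. GEO's platform annotation gave 1 symbol for 41097 of 54675 probe sets and several for 1801, and only single symbols were used.

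The 62 control probe sets and 30132 below the floor (log2 5 on at least 2 arrays) were left out, leaving 24481. limma 3.58.1 in R 4.3.3 fitted 1 mean per group over all 8 arrays (4 residual and 3.54 prior degrees of freedom), with two-sided tests and Benjamini-Hochberg adjustment within each of 7 comparisons. Precision is limited by the number of arrays. The 45 genes had a median standard error of 0.17 for a difference, and the smallest p of an exact permutation test with 2 arrays a side is 0.333. Replicate differences correlated over all probe sets from 0.34 to 0.58 in the 6 pairs of groups, so equal replicate numbers were taken to pair arrays. That pairing comes from the data, since the labels do not say what the number marks. The fits were tested on simulated data for both transfections against control, with 200 changed among 24481 probe sets in 10 draws. Of changes of 0.5 on the log2 scale 1.9% were recovered (0.7% with the replicate block), and of changes of 1, 69.8% (54.2%), with 6.64% (6.31%) false calls. The simulated arrays held no difference between replicate numbers, and in the data 918 probe sets were called lower. These rates therefore need not hold for the data, with or without the block.

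The genes and lists were chosen with earlier results of these data known. Values on every array are given for genes called in any comparison with or without the block and for the 3 largest and 3 smallest changes with both transfections. Up to 3 genes called without the block are named per other list, with some called with the block only. Alternatives were the floor, the moderation, the normalization, array weights, the probe set, the arrays fitted and the block. Promoter sequences and motifs come from RefSeq.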

Additional observations from a re-analysis of the deposited data

Results flagged for a closer look

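The difference between the replicate arrays ran in opposite directions in the control group and in the group with both transfections. The median over the 45 genes of replicate 2 minus replicate 1 was 0.13 on the log2 scale in control, with 39 genes higher, and -0.38 with both, with 44 lower. Each group has a single pair of arrays, and the difference between the groups was not tested. Replicate 2 of both also had the lowest CBFA2T3 value (7.83) and the highest IKBKB value (11.97) of the 8 arrays, and the part of these in the result was not tested.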

How the results depend on the processing

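The count of genes called with both transfections against control was 3. It was 10 with the replicate block, 0 with only the arrays compared, which leaves fewer arrays for the spread, and 0 with the second probe set, which 19 of the genes have. It was 2 to 4 with 1 probe set per gene, array weights, equal array medians, cyclic loess, robust trended moderation, no floor and a log2 floor of 6. Leaving out 1 array gave 0 to 18 for this comparison, 0 to 6 for both against the CBFA2T3 shRNA, and 0 in the other 5. Without replicate 1 of both, which gave the 18 and the 6, 7.16% and 0.833% of all probe sets were called lower. With the block and 1 array left out, an alternative chosen after seeing the data, the count was 14 without control 1, 0 without control 2, 7 without either shRNA array, 6 without either IKKβ(EE) array, 29 without replicate 1 of both and 0 without replicate 2 of both. All probe sets called lower in these fits were 8.42%, 1.495%, 9.599%, 9.395%, 11.1% and 2.27% in the same order. The cause was not tested.

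CCNB2 missed the threshold with no floor (adjusted p = 0.0707), cyclic loess (0.0504), equal medians (0.0522) and array weights (0.0607). Its change without 1 array ranged from -0.59 to -0.42, that of CENPF from -0.56 to -0.48 and that of TPX2 from -1.12 to -0.55. NDC80 ranged from -0.17 (without control 1) to 0.20 and was -0.048 without replicate 1 of both. CKS2 ranged from -0.20 to 0.063 (without replicate 2 of both), and ECT2 from -0.23 to 0.074 (without replicate 2 of both), with 0.067 without control 2. The median for replicate 2 against replicate 1 was -0.24 with the second probe set. The block changed the calls of 7 genes, all with both transfections against control, and no other call among the 45. With 2 arrays a group, changes near 0.5 on the log2 scale were rarely recovered in simulated data. Those data held no replicate difference and fewer changed probe sets than were called here, so the rate is a guide only. A missed threshold at that size does not show that a gene is unchanged.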
